A study of Saccharomyces cerevisiae with 8 samples.

Results

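Yeast held for 4 h in TFM was compared with yeast sampled at time zero, over all 5449 annotated genes of a 1-colour Affymetrix array. The members were chosen by their titles alone: the arrays of the longest TFM treatment and the untreated arrays, which are 4 of the 8 arrays and 3 of the 7 RNA samples of the series. TFM is a nitrophenol lampricide, known as a protonophore that uncouples mitochondrial respiration from ATP synthesis, and the labels give it by its abbreviation only. All groups were the haploid laboratory strain BY4741, a MATa strain that lacks URA3, LEU2 and MET17 and carries a partial HIS3 deletion, grown in rich glucose medium (YPD) at 30 °C until saturation. The time-zero group (2 RNA samples, 1 array each) had 2% isopropanol alone, the TFM solvent, and was taken just before treatment. The 4 h group had 0.05 mM TFM in the same solvent for 4 h and was 1 RNA sample hybridised to 2 technical arrays, which were averaged. The 1 h and 2 h groups had the same dose and solvent, with 2 RNA samples each. No solvent-only culture at 4 h was analysed here, so TFM and the 4 h that passed cannot be told apart. The replicates are labelled biological, but nothing states that each had its own culture. A p-value therefore measures how far these samples spread.

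Yeast grown to saturation in glucose first ferments the sugar and then, after the diauxic shift, respires the ethanol that it made. That second phase needs alcohol and acetate oxidation, the glyoxylate cycle and gluconeogenesis, whose genes are repressed by glucose and induced once glucose is gone. Ribosomal protein genes and ribosome assembly genes follow growth and nutrient signals, and peroxisomes carry out fatty acid oxidation.

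Values below are deposited log2 levels, and changes are 4 h minus time zero on the log2 scale. A gene was said to rise or fall where its adjusted p in limma was under 0.05, over all 5449 genes. The single 4 h sample has no spread of its own, and the fit assumes that it varies like the other groups. RMA brings the arrays towards a common distribution, so a change is relative to the other genes. Fewer cells with a transcript cannot be told apart from less of it per cell. Array medians lay between 11.03 and 11.11. A gene whose mean over the arrays is under 10.02, the 25th percentile of all probe sets, is called dim. The root mean square SD over genes was 0.160 between the controls, 0.174 between the 1 h samples and 0.0850 between the 2 h samples, against 0.0556 between the technical arrays at 4 h. The 17 ribosomal RNA control probe sets had medians of 9.76 and 9.97 in the controls, from 10.5 to 13.0 across the 1 h and 2 h arrays and 12.1 and 12.2 at 4 h, so the 4 h arrays stood above both controls, and the part of that difference in the results was not tested. Most of the strain checks given here followed the labels. URA3 lay at 3.51 to 4.10, LEU2 at 5.64 to 6.17 and MET17 at 4.36 to 4.76 over the 8 arrays. Values of HIS3, which is only partly deleted, are not given here. The MATa genes MFA1, MFA2, STE2, STE6 and BAR1 were above 10.02 on each array. Of the MATalpha genes, MF(ALPHA)1, MF(ALPHA)2 and STE3 were dim on every array, but SAG1 stood at 11.52 to 11.71.

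At 4 h, 40 genes rose (0.734% of those tested) and 203 fell (3.73%). Of these, 7 rose and 35 fell by at least 2-fold. The median change over all genes was -0.003. Genes that rose had a median control level of 10.62 and genes that fell one of 11.82, against 11.13 for all genes. ADH2, the alcohol dehydrogenase that oxidises ethanol, had the largest fall, and YKL068W-A, to which no role is given here, the largest rise. Another 10 genes differed by at least 2-fold without passing, 4 of them dim. Among these, SUT1 (chosen after its values were seen), a factor in sterol uptake, stood at 12.39 and 11.33 before treatment against 10.59 and 10.56 after 4 h. Its groups do not overlap, but the controls are about 1 log2 unit apart, and the adjusted p was 0.14.

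These counts moved with the samples in the fit. With control replicate 1 left out, 3 genes rose and 39 fell, and without control replicate 2 the counts were 11 and 73. Leaving out a 2 h sample, whichever of the pair, gave 2 and 16, whereas leaving out a 1 h sample gave 82 and 271. A fit of the controls and the 4 h sample alone passed 1 gene, ADH2, at an adjusted threshold of 0.05, with 976 genes at an unadjusted p under 0.05 against 1079 in the fit of all samples. For this contrast it makes no difference which of the 2 h samples is left out, nor which of the 1 h samples. The other 14 alternatives are therefore not 14 separate checks. In them, 18 genes passed in the same direction each time they were tested. They were NSR1 and YKL068W-A, which rose, and ACS1, ADE17, ADH2, ICL1, INO1, PLB2, RKI1, RPL22A, RPL24A, RPS0A, RPS0B, RPS13, RPS3, RPS9B, SCW10 and SFC1, which fell. PLB2, being dim, was not tested in the alternative limited to genes above the 25th percentile. RPS3 is the only one of them outside the naming rule and was chosen after its values were seen.

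**Figure D1:**
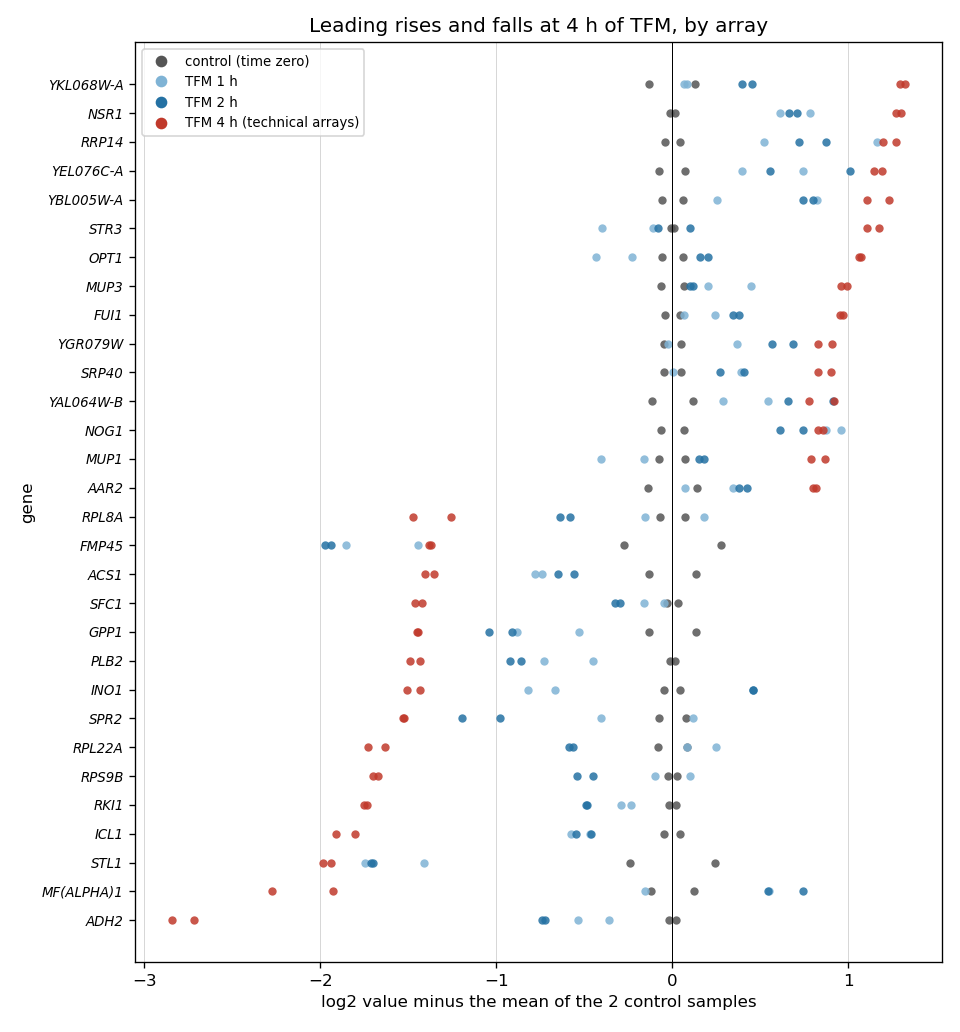
The 15 largest rises and 15 largest falls among genes that passed, 1 line per gene, with each array's log2 value minus the mean of the 2 control samples on the horizontal axis (grey: time zero, light blue: 1 h, dark blue: 2 h, red: the 2 technical arrays at 4 h). The red points lie outside the grey points in every gene drawn, and for FMP45 the 1 h and 2 h points lie further from the controls than the 4 h points.

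Genes of ethanol use, the glyoxylate cycle and gluconeogenesis had the largest share of falls among the 45 gene lists examined. Of its 22 measured members 11 fell (3.73% of all genes fell), 0 rose, and the median change was -0.48. Both 4 h arrays lay below both controls for 20 of the 22, against 36.0% of all genes. The members that fell ranged from -2.78 to -0.48. The gene lists were chosen with earlier results of these data known. Their shares and rankings, here and below, are therefore descriptions.

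ADH2 read 14.31 and 14.28 before treatment, then 13.76 and 13.94 after 1 h, 13.57 and 13.56 after 2 h and finally 11.58 and 11.45 after 4 h. The 4 h arrays were the lowest and the controls the highest, with no overlap between any of the groups. The fall was 6.87-fold (SE 0.11 in log2, adjusted p = 0.000562 in limma). ICL1, the isocitrate lyase that opens the glyoxylate cycle, read 14.03 and 13.94 at time zero and 12.19 and 12.08 at 4 h, a 3.62-fold fall, with 13.41 to 13.52 between them in time. MLS1, the malate synthase that completes the cycle, fell by 1.03 (SE 0.10, adjusted p = 0.00881), from 14.27 and 14.37 to 13.30 and 13.28. Its 1 h and 2 h arrays, between 14.13 and 14.25, lay just below the controls.

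SFC1, the mitochondrial carrier that exchanges succinate for fumarate, stood at 13.50 and 13.56 before treatment against 12.11 and 12.07 after 4 h. That is a fall of 1.44 (SE 0.10, adjusted p = 0.00296), and the 2 h arrays at 13.21 and 13.23 lay much nearer the controls than the 4 h arrays. ACS1, the acetyl-CoA synthetase of non-fermenting cells, fell by 1.38 (SE 0.13), from 13.82 and 13.55 to 12.28 and 12.33. It was already lower at 1 h, by 0.76. The gluconeogenic enzyme FBP1, fructose-bisphosphatase, and the cytosolic isocitrate dehydrogenase IDP2, neither of them in the naming rule and both chosen after their values were seen, fell by 0.88 and 0.89. FBP1 read between 14.26 and 14.39 on all 6 arrays up to 2 h and then 13.34 and 13.46. In the same list PCK1, the other enzyme particular to gluconeogenesis, stood at 14.59 and 14.58 before treatment against 14.57 and 14.55 after 4 h, a change of -0.03 (adjusted p = 0.907). The activators CAT8 and ADR1, which switch on many of these genes, had changes of 0.21 and 0.24 that did not pass. The 3 were also picked after their values were seen.

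The list's count was 6 with control replicate 1 left out, 9 with control replicate 2 left out, 4 without a 2 h sample, and 1 in the fit of controls and 4 h alone. ADH1, the fermentative alcohol dehydrogenase, was unlike ADH2: it stood at 14.47 and 14.51 before treatment against 14.55 and 14.51 after 4 h, overlapping, with a change of 0.04 (adjusted p = 0.844).

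**Figure D2:**
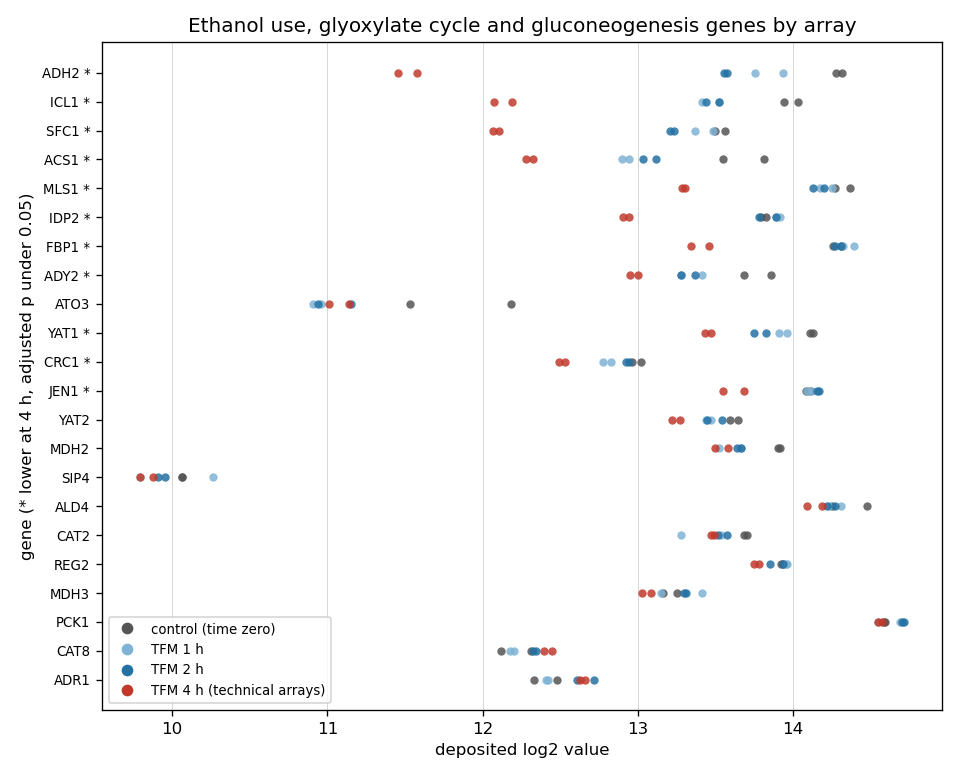
Deposited log2 level of the 22 measured genes of ethanol use, the glyoxylate cycle and gluconeogenesis, 1 line per gene, with each array as a point (grey: time zero, light blue: 1 h, dark blue: 2 h, red: 4 h technical arrays) and a star beside the 11 that fell. The red points stand to the left of the others for the genes at the top, while PCK1, CAT8 and ADR1 at the bottom have no such gap.

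Peroxisomal beta-oxidation followed, with 8 of 20 genes lower, 0 higher and a median change of -0.35. CTA1, the peroxisomal catalase, stood at 12.08 ± 0.11 (SD, n = 2) before treatment against 11.10 and 11.13 after 4 h, below both controls, a fall of 0.96 (SE 0.11, adjusted p = 0.0148). TES1, a peroxisomal acyl-CoA thioesterase, fell by 0.80, and FOX2, the multifunctional beta-oxidation enzyme, by 0.66. ANT1, which brings ATP into the peroxisome, fell by 0.62. For FOX2 the 1 h and 2 h arrays (12.92 to 13.10) lay close to the controls (13.10 and 12.96), and the 4 h arrays (12.38 and 12.36) lay apart from all of them. The count was 0 with control replicate 1 left out, 4 with control replicate 2 left out, 0 without a 2 h sample and 0 in the fit of controls and 4 h alone.

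In the tricarboxylic acid cycle 3 of 18 genes fell, with a median of -0.24 and 15 of 18 below 0. They were CIT3, a mitochondrial methylcitrate and citrate synthase (-0.64), LSC1, a subunit of succinyl-CoA ligase (-0.62), and ACO1, aconitase (-0.56). ACO1 read 13.99 and 14.02 in the controls, 14.04 to 14.15 at 1 h and 2 h, and 13.46 and 13.43 at 4 h. Its earlier arrays were thus all above the controls and its 4 h arrays below. Among the mitochondrial carriers 1 of 22 fell, ODC1, which moves oxodicarboxylates (-0.81, SE 0.09, adjusted p = 0.0145).

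The respiratory chain and the ATP synthase had 1 call each. Of 26 respiratory chain genes 1 fell, DLD1, the mitochondrial D-lactate dehydrogenase (-0.51, adjusted p = 0.0441), and the list median was -0.06. Of 20 ATP synthase genes 1 fell, ATP19 (-0.47, adjusted p = 0.0489), with a median of -0.16 and 16 of 20 changes below 0. Both 4 h arrays lay below both controls for 14 of the 20 ATP synthase genes and 13 of the 26 respiratory chain genes, against 36.0% of all genes. Mitochondrial ribosomal proteins had 2 of 71 lower, MRPL20 (-0.55) and MRP2 (-0.52), at a median of -0.13, and 2 of 45 genes of mitochondrial import and processing fell, TIM12 (-0.56) and SOM1 (-0.49). CIT2, the peroxisomal citrate synthase used as a reporter of the retrograde pathway from mitochondria to nucleus, stood at 14.42 and 14.46 before treatment against 14.57 and 14.55 after 4 h. Its change of 0.12 did not pass (adjusted p = 0.523), and ACO1 was the only 1 of the 12 retrograde response genes that did. The calls of the TCA cycle, DLD1, ATP19, the mitochondrial ribosomal proteins and the import genes were all lost without a 2 h sample, and also with either control replicate left out.

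Sugar use showed isolated changes. RKI1, the ribose-phosphate isomerase of the pentose phosphate pathway, read 12.24 and 12.29 before treatment, then 11.98 and 12.03 after 1 h, 11.78 and 11.78 after 2 h and finally 10.52 and 10.53 after 4 h. The groups do not overlap, and the fall was 3.35-fold (SE 0.09 in log2, adjusted p = 0.00169). The other 17 members of that list did not pass, and the list median was 0.02. PFK27, a kinase that makes an activator of glycolysis, rose by 0.76 (SE 0.11, adjusted p = 0.0256) and was the only 1 of 31 glycolysis and fermentation genes to pass. TDH3, the main glyceraldehyde-phosphate dehydrogenase, had a change of 0.05 (adjusted p = 0.81). Of 23 hexose transporter and glucose signalling genes 0 passed in limma, with 6 higher and 2 lower at an unadjusted p under 0.05. HXT1, a low-affinity glucose carrier, had the largest change among them, 0.91, with 9.06 and 8.23 before treatment against 9.55 and 9.57 after 4 h (adjusted p = 0.213). Of 23 trehalose and glycogen genes 0 passed either, 4 being higher and 1 lower at an unadjusted p under 0.05, and the largest change there was -0.52 for PGM1, a phosphoglucomutase. RKI1 was kept in all alternatives but the fit of controls and 4 h alone, and PFK27 was lost without either control replicate or a 2 h sample.

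Among genes of glycerol metabolism and targets of the Hog1 osmotic stress kinase 5 of 25 fell, with a median of -0.09 for the list. STL1, the glycerol and proton symporter of the plasma membrane, read 13.55 and 13.07 before treatment, then 11.56 and 11.90 after 1 h, 11.61 and 11.60 after 2 h and finally 11.37 and 11.32 after 4 h. All TFM arrays were below both controls, and the 4 h arrays were the lowest. The 4 h fall was 3.90-fold (SE 0.22 in log2, adjusted p = 0.0145), and the falls at 1 h and 2 h were 1.58 and 1.71. GPP1, glycerol phosphatase, fell by 1.45 (SE 0.18), and GPD1, glycerol phosphate dehydrogenase, by 0.94 (SE 0.17, adjusted p = 0.0411). GPD1 had fallen by 0.97 at 1 h, and its difference of -1.03 at 2 h did not pass. SIP18, a desiccation tolerance protein, was dim and fell by 0.83, after 10.36 and 10.26 at 1 h, which were above its controls of 9.94 and 9.76. FMP45, a membrane protein of the eisosome region, fell by 1.38 at 4 h from 12.60 and 12.04 to 10.95 and 10.94. The count for the list was 1 with control replicate 1 left out, 5 with control replicate 2 left out, 0 without a 2 h sample and 0 in the fit of controls and 4 h alone.

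By number, cytosolic ribosomal protein genes held the most falls of any group examined, with the large-subunit and small-subunit lists pooled. The share that fell was larger for ethanol use (11 of 22), peroxisomal beta-oxidation (8 of 20) and stationary phase and vitamin B6 (7 of 23). Of 129 ribosomal protein genes measured, 37 fell and 0 rose, while 3.73% of all genes fell. The falls were 23 of 76 for the large subunit (median -0.38) and 14 of 53 for the small subunit (median -0.35). Those that fell ranged from -1.69 to -0.47. Both 4 h arrays lay below both controls for 113 of the 129, against 36.0% of all genes, and above for 6, against 33.7%. For the 2 lists the median change was 0.08 and 0.07 at 1 h and -0.16 and -0.17 at 2 h.

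RPS9B of the small subunit read 11.85 and 11.79 before treatment, then 11.72 and 11.92 after 1 h, 11.37 and 11.28 after 2 h and finally 10.15 and 10.12 after 4 h. The 1 h arrays spanned the controls, and the later groups stood below them without overlap. RPL22A of the large subunit stood at 12.12 and 12.28 before treatment against 10.56 and 10.47 after 4 h, a 3.21-fold fall, with 1 h arrays at or above the controls and 2 h arrays at 11.63 and 11.61. RPS13, which has no second copy, fell by 1.25 (SE 0.09, adjusted p = 0.00296), from 13.09 and 13.12 to 11.81 and 11.90. RPS3, also a single-copy gene, fell by 1.21, from 13.44 and 13.56 to 12.27 and 12.31.

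The counts of ribosomal protein genes moved with the samples in the fit. The medians use the control and 4 h arrays only, so leaving out a 1 h or 2 h sample cannot move them. Without control replicate 1 they were -0.43 (large subunit) and -0.36 (small subunit). With control replicate 2 left out they were -0.32 and -0.27. The large-subunit count was 3 with control replicate 1 left out, 4 with control replicate 2 left out, 2 without a 2 h sample, 31 without a 1 h sample and 0 in the fit of controls and 4 h alone. The small-subunit count was 7, 6, 5, 19 and 0 in the same order.

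Most yeast ribosomal proteins are encoded by a pair of nearly identical genes, named A and B, kept from an ancient genome duplication. Both copies were measured for 49 pairs. In 3 pairs both copies fell, in 20 pairs 1 copy fell and in 26 neither passed. The 3 pairs were RPS0A (-1.30) with RPS0B (-1.20), RPL8A (-1.37) with RPL8B (-0.66), and RPL21A (-0.76) with RPL21B (-0.65). The RPL21A probe set is of a type that can bind related transcripts, so signal from RPL21B can mix there. A pair with 1 call can hold similar changes in both copies, split only by the threshold. RPL27B fell by 0.75, and RPL27A had a change of -0.84 that did not pass. RPL12B fell by 0.53, beside -0.39 for RPL12A, which did not pass. Both of these pairs were chosen after their values were seen.

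Other pairs had unlike values. Beside RPL22A, at -1.68, RPL22B had a change of -0.01 (adjusted p = 0.973), but at a control level of 9.33, under the dim level. RPL24A fell by 1.27 (adjusted p = 0.00666), from 12.27 and 12.30 to 11.00 and 11.03, whereas RPL24B had a change of 0.03 (adjusted p = 0.90). RPS9A had a change of -0.40 (adjusted p = 0.225) beside -1.69 for RPS9B, also at a low control level, 8.79 against 11.82. RPS27B fell by 0.64 while RPS27A had a positive change of 0.42 that did not pass (adjusted p = 0.0619). RPL16B fell by 0.93, with -0.18 for RPL16A. The difference between copies was not tested, the B copies and RPS27A, RPS9A and RPL16A were chosen after their values were seen, and in 15 of the 49 pairs at least 1 probe set is of a type that can bind related transcripts, so that signal from the copies can mix there.

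**Figure D3:**
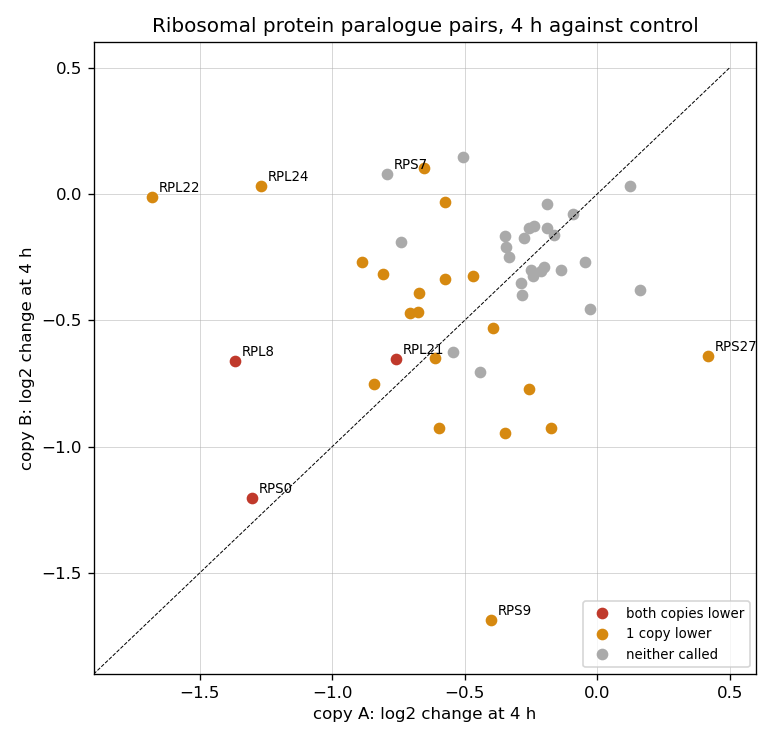
Log2 change at 4 h of copy A (horizontal) against copy B (vertical) for the 49 ribosomal protein pairs with both copies measured, coloured by whether both copies fell (red, 3 pairs), 1 fell (orange, 20) or neither passed (grey, 26). The dashed line marks equal change: RPS0 lies close to it, and RPL22, RPL24 and RPS9 lie far from it. RPL22B and RPS9A had control levels under the dim level.

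Genes that assemble ribosomes had a few calls in each direction, where 0.734% of all genes rose and 3.73% fell. Of 63 genes of the small-subunit processome and box C/D particles 3 rose and 1 fell, with a median of 0.08. Of 72 large-subunit assembly genes 4 rose and 2 fell, with a median of 0.09. In both lists the share that fell was under that of all genes. Both lists had larger medians at earlier times, 0.30 and 0.44 at 1 h and 0.16 and 0.23 at 2 h. The 4 h medians were 0.0027 and -0.0030 with control replicate 1 left out, against 0.15 and 0.13 with the other control left out, and 38 of the 63 and 33 of the 72 genes were dim.

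NSR1, a nucleolin-like protein of the nucleolus, read 9.43 and 9.46 before treatment, then 10.06 and 10.23 after 1 h, 10.16 and 10.11 after 2 h and finally 10.71 and 10.75 after 4 h. All TFM arrays stood above the controls and the 4 h arrays above the rest. Its rise at 4 h was 2.43-fold (SE 0.11 in log2, adjusted p = 0.00592). RRP14, a nucleolar protein of pre-ribosome processing, rose by 1.23 (SE 0.24, adjusted p = 0.0474). NOG1, a GTPase of the large-subunit precursor, rose by 0.84, from 9.14 and 9.27 to 10.06 and 10.03. Its 1 h arrays, at 10.08 and 10.17, were just above those of 4 h. SNU13, a protein shared by box C/D particles and the spliceosome, rose by 0.78, and SQT1, a chaperone of a large-subunit protein, by 0.60. BUD20 (0.48) and UTP15 (0.48) also rose. NOG1 and UTP15 were dim, and the controls of NSR1 were under the dim level too.

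The 3 genes that fell in these lists were all dim. RRP1 read 8.74 and 8.99 before treatment, then 9.77 and 9.64 after 1 h, 8.86 and 8.69 after 2 h and finally 7.73 and 7.83 after 4 h. It was the highest at 1 h, rising by 0.84, and the lowest at 4 h, falling by 1.08 (SE 0.14, adjusted p = 0.0183). RRP3, an RNA helicase, fell by 1.04 and RIX1, a large-subunit assembly factor, by 0.65. Without a 2 h sample only NSR1 of these genes passed in its list. Without control replicate 1 the large-subunit assembly counts were 0 higher and 1 lower, and without control replicate 2 they were 1 and 1.

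Other parts of the translation machinery had few calls. PRT1, a core subunit of initiation factor eIF3, fell by 0.80 (SE 0.09, adjusted p = 0.0145), from 11.88 and 11.93 to 11.09 and 11.11, as the only 1 of 41 translation factor genes. THS1 (-0.47) and GRS1 (-0.54), the threonyl and glycyl tRNA synthetases, were the 2 of 35 synthetase genes that fell. RPC31, a subunit of RNA polymerase III, was dim and fell by 0.62, 1 of 42 genes of RNA polymerases I and III. SSB1 (-0.53) and SSB2 (-0.56), the Hsp70 chaperones bound to ribosomes, fell in a list of 44 chaperones whose median was 0.12. Both 4 h arrays lay above both controls for 28 of the 44 and below for 6, against 33.7% and 36.0% of all genes. The SSB1 probe set is of a type that can bind related transcripts, so signal from SSB2 can mix there. All of these calls were lost without a 2 h sample.

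Sulfur amino acid genes had the most rises of the 45 lists: 6 of 41 rose (0.734% of all genes did), 0 fell, 31 had positive changes and the median was 0.24. Both 4 h arrays were above both controls for 29 of the 41, against 33.7% of all genes. BY4741 lacks MET17, the enzyme that builds sulfide into homocysteine, so these cells take methionine from the medium. STR3, the peroxisomal cystathionine beta-lyase, read 11.41 and 11.43 before treatment, then 11.31 and 11.02 after 1 h, 11.52 and 11.34 after 2 h and finally 12.53 and 12.59 after 4 h. The 4 h arrays stood about 1 log2 unit above all the others, a 2.20-fold rise (SE 0.15 in log2, adjusted p = 0.0177). MUP3, a low-affinity methionine permease, rose by 0.97 (SE 0.13), from 10.54 and 10.41 to 11.47 and 11.43. MUP1, the high-affinity methionine permease, rose by 0.83, from 12.37 and 12.22 to 13.09 and 13.16. MET2, homoserine acetyltransferase, rose by 0.72. MET3, the ATP sulfurylase that opens sulfate assimilation, stood at 10.28 and 10.19 before treatment against 10.27 and 10.18 after 4 h, which overlap, with a change of -0.01 (adjusted p = 0.986). The median of the sulfur list can move only where a control or a 4 h array is left out, not a 1 h or 2 h sample. The count was 0 without either control replicate, 0 without a 2 h sample, 10 without a 1 h sample and 0 in the fit of controls and 4 h alone, while the list median stayed between 0.20 and 0.25 when any array was left out.

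Uptake of other nitrogen compounds had scattered rises. OPT1, the oligopeptide and glutathione transporter, read 10.38 and 10.26 before treatment, then 10.09 and 9.89 after 1 h, 10.53 and 10.48 after 2 h and finally 11.40 and 11.38 after 4 h. It was lowest at 1 h and highest at 4 h, a rise of 1.07 (SE 0.12, adjusted p = 0.0145). In the list of 29 amino acid and peptide permeases 4 rose, OPT1, MUP1, MUP3 and the GABA permease UGA4 (0.64), and 1 fell, ALP1, a basic amino acid permease (-0.74). UGA4 and DAL80, a GATA repressor (0.65), were the 2 of 32 genes under nitrogen catabolite repression that rose. FUI1, the uridine permease, rose by 0.96 (SE 0.11, adjusted p = 0.0145), from 11.87 and 11.96 to 12.89 and 12.87. Of these calls only OPT1 was kept without control replicate 1, only OPT1 and FUI1 without control replicate 2, and 0 without a 2 h sample. GCN4, the activator of amino acid starvation genes, had a change of 0.12 (adjusted p = 0.574).

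The list of amino acid biosynthesis outside the sulfur pathway went the other way in a few genes, with 8 of 67 lower, 0 higher and a median of -0.11. Its falls include ARO9 and ARO10, which act in amino acid breakdown. ARO9, an aromatic aminotransferase, read 12.07 and 11.87 before treatment, then 11.50 and 11.73 after 1 h, 11.21 and 11.19 after 2 h and finally 10.90 and 10.84 after 4 h. Each later group lay below the one before it without overlap, and the 4 h fall was 2.14-fold (SE 0.14 in log2, adjusted p = 0.0165). ARO10, a phenylpyruvate decarboxylase, which acts after ARO9 in the breakdown of aromatic amino acids to fusel alcohols, fell by 0.99 (SE 0.15). ASN2, an asparagine synthetase, fell by 0.87, and ILV5 of branched-chain amino acid synthesis by 0.68. The list's count was 0 with control replicate 1 left out, 3 with control replicate 2 left out, 5 without the second 4 h array, 0 without a 2 h sample and 0 in the fit of controls and 4 h alone.

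**Figure D4:**
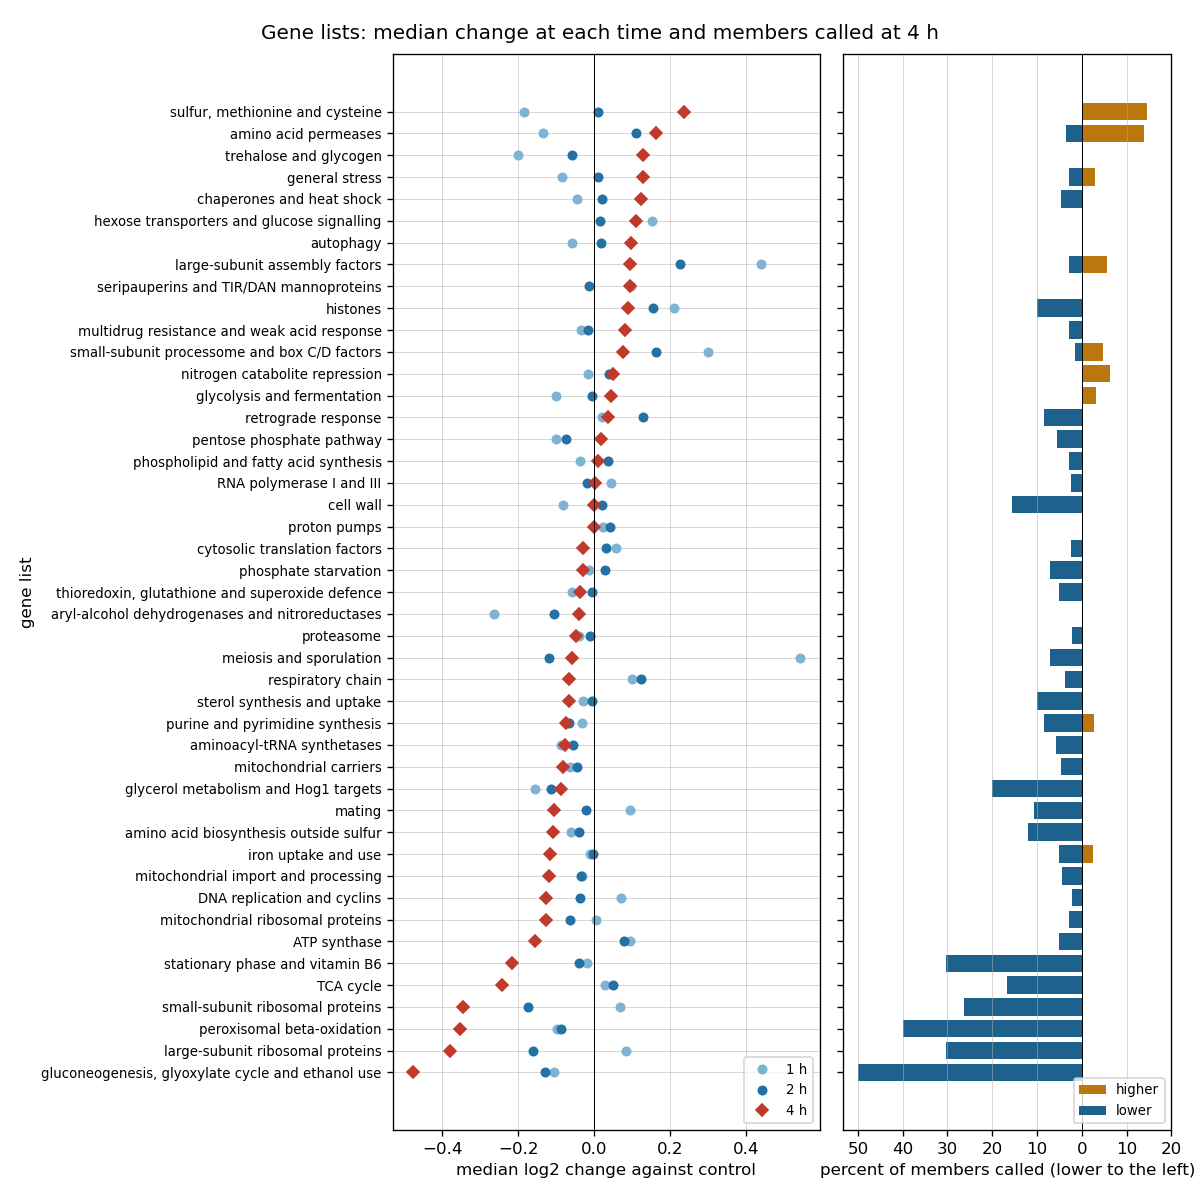
Left, the median log2 change against time zero of each of 45 gene lists at 1 h (light blue), 2 h (dark blue) and 4 h (red diamonds), ordered by the 4 h median. Right, the percent of the members that rose (orange, to the right) or fell (blue, to the left) at 4 h: gluconeogenesis and the glyoxylate cycle have 11 of 22 lower at the bottom, and the sulfur list has 6 of 41 higher at the top.

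The nucleotide synthesis list had 1 rise, the uridine permease FUI1, and 3 falls in 36 genes. ADE17, which carries out the last steps of purine synthesis to IMP, read 12.66 and 12.63 before treatment, then 12.53 and 12.36 after 1 h, 11.66 and 11.63 after 2 h and finally 11.35 and 11.33 after 4 h. The larger step was between 1 h and 2 h, and the fall at 4 h was 2.47-fold (SE 0.10 in log2, adjusted p = 0.00529). IMD3, an IMP dehydrogenase, fell by 0.78 and FUR1, uracil phosphoribosyltransferase, by 0.63. These last 2 falls were lost without control replicate 1 or a 2 h sample.

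INO1, the inositol phosphate synthase that makes inositol for phospholipids, read 12.04 and 12.13 before treatment, then 11.27 and 11.42 after 1 h, 12.54 and 12.55 after 2 h and finally 10.66 and 10.58 after 4 h. It was below the controls at 1 h, above them at 2 h and lowest at 4 h, with no overlap between groups. The 4 h fall was 2.77-fold (SE 0.11 in log2, adjusted p = 0.00311), and the 1 h fall of 0.74 passed as well (adjusted p = 0.021), while the 2 h difference of 0.46 did not (adjusted p = 0.14). It was the only 1 of 36 phospholipid and fatty acid genes to pass. PLB2, a phospholipase B at a dim level, fell by 1.46 (SE 0.13, adjusted p = 0.00673).

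Of 40 sterol genes 4 fell and the median was -0.07. ERG4, the last reductase of ergosterol synthesis, read 12.58 and 12.52 in the controls, 12.44 to 12.64 at 1 h and 2 h, and 11.70 and 11.71 at 4 h. Only the 4 h arrays stood apart, by -0.84 (SE 0.09, adjusted p = 0.0132). ERG6, the sterol methyltransferase (-0.57), ERG10, the first enzyme of the mevalonate pathway (-0.48), and ERG3, a sterol desaturase (-0.71), also fell. The count was 0 with control replicate 1 left out, 2 with control replicate 2 left out and 0 without a 2 h sample.

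Iron genes had 2 falls and 1 rise in 39. SIT1, a siderophore importer, read 12.08 and 12.15 in the controls, 12.05 to 12.25 at 1 h and 2 h, and 11.00 and 10.99 at 4 h. The earlier arrays surround the controls, and the 4 h fall was 2.18-fold (SE 0.11 in log2, adjusted p = 0.00943). FTR1, the high-affinity iron permease, fell by 0.59, and the copper transporter CTR1 rose by 0.57. SIT1 was kept without either control replicate and lost without a 2 h sample, and FTR1 and CTR1 were lost in all of these settings.

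Cell wall genes had 8 of 51 lower, 0 higher and a median of -0.0007. SCW10, a soluble wall protein of the glucanase family, read 11.47 and 11.58 before treatment, then 11.99 and 12.06 after 1 h, 11.69 and 11.73 after 2 h and finally 10.46 and 10.37 after 4 h. Both earlier groups were above the controls and the 4 h arrays below, a fall of 1.11 (SE 0.10, adjusted p = 0.00666) after a rise of 0.50 at 1 h. GAS1 (-0.71) and GAS3 (-0.60), both of the glucanosyltransferase family that remodels wall glucan, and KNH1, involved in glucan synthesis (-0.56), fell as well. The count was 1 without control replicate 1, without control replicate 2 or without a 2 h sample, and 0 in the fit of controls and 4 h alone.

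Genes of stationary phase and vitamin B6 synthesis had 7 of 23 lower, 0 higher and a median of -0.22. SNZ3, of vitamin B6 synthesis, read 11.91 and 12.07 in the controls, 12.11 to 12.32 at 1 h and 2 h, and 10.98 and 10.93 at 4 h. The earlier arrays were above the controls, and the 4 h arrays were about 1 log2 unit below them (-1.04, SE 0.12, adjusted p = 0.0148). The SNZ3 probe set is of a type that can bind related transcripts, so signal from relatives can mix there. SNZ1, a relative of SNZ3, fell by 0.69, after a change of -0.40 at 1 h. SPG1, needed for survival in stationary phase, fell by 0.81. SIP18 and FMP45, described above, belong to this list as well. The count was 1 with control replicate 1 left out, 4 with control replicate 2 left out, 0 without a 2 h sample and 0 in the fit of controls and 4 h alone.

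Stress and drug response genes had few calls. Both 4 h arrays lay above both controls for 23 of the 34 general stress genes and below for 7. For the 35 genes of multidrug resistance and the weak acid response these counts were 16 and 7. Over all genes the shares were 33.7% above and 36.0% below. Of 34 general stress genes 1 rose, the stress activator MSN4 (0.73, SE 0.09, adjusted p = 0.0178), and 1 fell, OM45, a mitochondrial outer membrane protein (-0.74, SE 0.09, adjusted p = 0.0171). HSP12, a small heat shock protein, stood at 14.69 and 14.61 before treatment against 14.73 and 14.70 after 4 h. That difference of 0.06 did not pass (adjusted p = 0.783). CTT1, the cytosolic catalase, stood at 13.81 and 13.28 before treatment against 12.90 and 13.01 after 4 h, both below both controls, though the controls themselves are far apart (-0.59, adjusted p = 0.19). Of 35 genes of multidrug resistance and the weak acid response 1 fell, PDR8, a dim transcription factor (-0.67). PDR5, the main drug efflux pump, had 13.68 and 13.64 before treatment against 14.04 and 13.94 after 4 h. The groups do not overlap and the change of 0.34 did not pass (adjusted p = 0.0991). The pumps SNQ2 (0.11) and PDR12 (-0.27), the second of them for weak acids, did not pass either. The calls of MSN4, OM45 and PDR8 were lost without a 2 h sample, and also with either control left out.

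The proton pumps had 0 of 23 past the threshold in limma, and 1 lower at an unadjusted p under 0.05. PMA1, the plasma membrane proton ATPase, read 13.08 and 13.29 in the controls, 13.21 to 13.34 at 1 h and 2 h, and 12.66 and 12.66 at 4 h. Its 4 h arrays were below all the others, with a change of -0.53 just short of the threshold (SE 0.11, adjusted p = 0.0559). In the redox list 2 of 40 fell, CTA1, named with the peroxisomal genes, and TRX1, a cytosolic thioredoxin (-0.56). None of the 9 genes for nitroreductases and aryl-alcohol dehydrogenases passed (0 of 9, and 0 at an unadjusted p under 0.05), ADH7 having the largest change at -0.28. Of 46 proteasome genes 1 fell, PUP1 (-0.57), and 0 of 33 autophagy genes and 0 of 19 seripauperin and TIR/DAN mannoprotein genes passed. At an unadjusted p under 0.05, 4 autophagy genes were higher and 3 lower, and 3 of the mannoprotein list were higher. PHO3 (-0.81) and PHO5 (-0.54), acid phosphatases, were the 2 of 28 phosphate genes that fell, whereas PHO84, the phosphate carrier, had a change of -0.08 (adjusted p = 0.715). The calls of TRX1, PUP1 and both phosphatases were lost when a 2 h sample or either control was left out.

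Of 28 mating genes 12 were dim and 3 fell, all 3 of them dim. MF(ALPHA)1, the alpha-factor gene that MATa cells keep silent, read 7.49 and 7.73 before treatment, then 7.45 and 8.16 after 1 h, 8.15 and 8.35 after 2 h and finally 5.34 and 5.68 after 4 h, all under the dim level. The 4 h arrays were the lowest, with a change of -2.10 (SE 0.28, adjusted p = 0.0199). KAR4, a factor for nuclear fusion genes, fell by 0.93 and FIG1, a membrane protein of mating, by 0.96. Of 57 meiosis and sporulation genes 46 were dim and 4 fell: SPO20, of the spore membrane (-0.89), CDA1, a chitin deacetylase of the spore wall (-0.59), SPS22 (-0.67) and the meiotic activator NDT80 (-0.64). The median of that list was -0.06 at 4 h and 0.54 at 1 h. The 1 h arrays also had higher 5th percentiles over all probe sets than the controls, and the part of that in the 1 h median was not tested. The 4 h median became -0.21 with control replicate 1 left out and 0.05 with the other control left out. PRI1, the DNA primase (-0.60), was the 1 of 48 replication and cyclin genes that fell, and HHO1, the linker histone (-0.54), the 1 of 10 histone genes. ACT1, actin, had a change of 0.05 (adjusted p = 0.81). The calls named in this group were all lost without a 2 h sample, and those of MF(ALPHA)1, CDA1, SPS22, NDT80, PRI1 and HHO1 also with either control left out.

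Among the largest rises several genes have no role given here. YKL068W-A read 10.57 and 10.83 before treatment, then 10.78 and 10.77 after 1 h, 11.15 and 11.10 after 2 h and finally 11.99 and 12.02 after 4 h. The 1 h arrays lay between the controls, and the later groups stood above them, with a 4 h rise of 2.48-fold (SE 0.13 in log2, adjusted p = 0.00881). YEL076C-A (1.17) and YBL005W-A (1.17) each have a probe set of a type that can bind related transcripts, so signal from such transcripts may mix. YGR079W (0.87) and YAL064W-B (0.85) were dim. SRP40, a nucleolar protein, rose by 0.86 and AAR2, of spliceosome assembly, by 0.81, the latter dim. SPR2, also dim, was among the largest falls at -1.53. Each of these calls except that of YKL068W-A was lost without control replicate 1 and without a 2 h sample.

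The 4 h sample was also set directly against the 2 h samples in the same fit, which asks whether a change came after 2 h. In that contrast 5 genes were higher at 4 h (0.0918% of those tested) and 42 lower (0.771%). At 2 h itself 1 gene was higher than time zero (0.0184%) and 5 lower (0.0918%), and at 1 h 189 were higher (3.47%) and 83 lower (1.52%). Against the 1 h samples, 174 genes were higher at 4 h (3.19%) and 465 lower (8.53%). Over the genes that fell at 4 h, the median change was -0.06 at 1 h, -0.23 at 2 h and -0.69 at 4 h. Over the genes that rose it was 0.17, 0.30 and 0.73. These medians are descriptions, since the genes were chosen by the 4 h contrast, and the contrasts share the controls or the single 4 h sample.

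Between 2 h and 4 h ADH2 differed by -2.05 (adjusted p = 0.00258) and INO1 by -1.93 (adjusted p = 0.00258). ICL1 differed by -1.35, SCW10 by -1.29, RKI1 by -1.26 and RPS9B by -1.19. STR3, at 1.13 (adjusted p = 0.0364), had the largest positive difference of the genes named here. STL1, GPD1 and FMP45 did not pass between 2 h and 4 h, and their changes against time zero at 1 h were -1.58, -0.97 and -1.65.

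**Figure D5:**
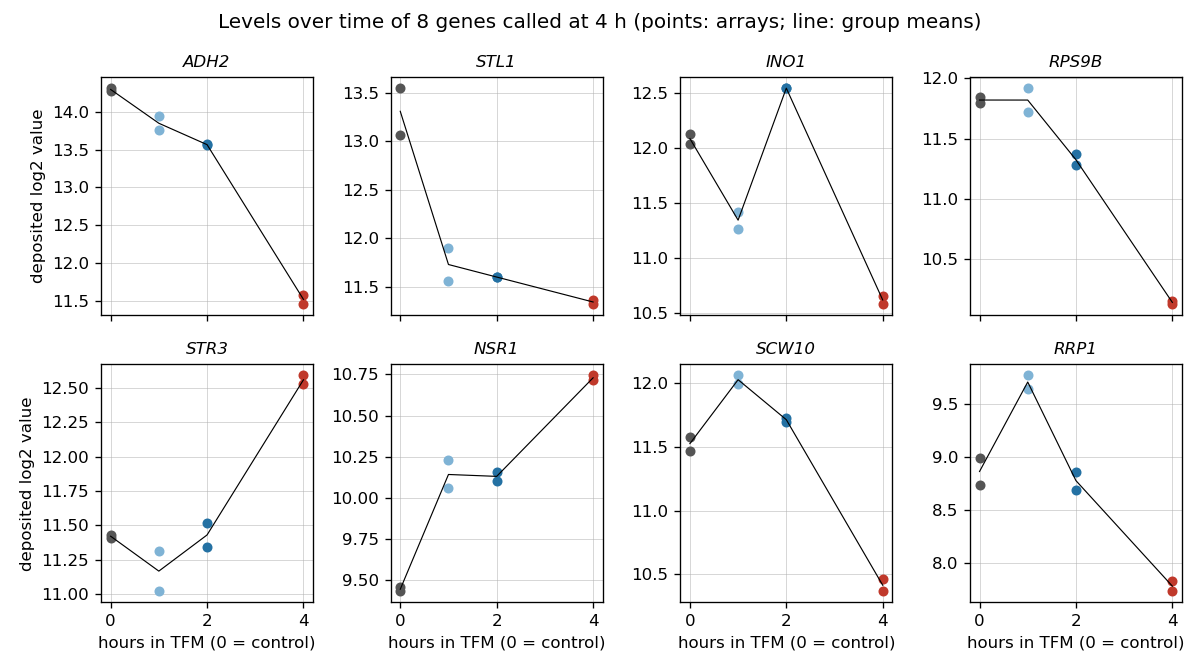
Deposited log2 level against hours in TFM (0 marks the controls) for 8 genes that passed at 4 h, with each array as a point and a line through the group means. Each panel has its own vertical scale: ADH2 is lower at each time, STL1 is low from 1 h on, RPS9B is lower from 2 h and STR3 higher at 4 h alone, NSR1 is higher at every time, and INO1, SCW10 and RRP1 cross their control level.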

How the data were processed

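The authors deposited 1 table of log2 values for 8 arrays of biotin-labelled cRNA, made with RMA per the submitters' processing notes (settings not given in the sources used here). The log base was judged from the range of the values. RMA brings array distributions close to each other, which hides a shift shared by most genes. The number of arrays limits the precision.

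Platform annotation named 1 gene for 5498 of 5814 probe sets and none for 316. The probe set with the highest mean stood for each of 5449 genes. The technical arrays at 4 h were averaged, and limma 3.58.1 in R 4.3.3 (lmFit, eBayes) was fitted to 7 RNA samples in 4 groups, leaving 3 residual degrees of freedom, with Benjamini-Hochberg adjustment over all genes and a threshold of 0.05. The fit was tested on simulated data. Genes were named where they were among the 15 largest rises or falls that passed, among the 4 smallest adjusted p in each direction of a list (or, with none past the threshold, its largest change), a strain marker or 1 of 17 fixed genes. The gene lists and the genes in them were chosen with earlier results of these data known. Alternatives changed the normalization, filter, prior, probe set rule, samples and replicate block, or left out 1 array. Deviations of same-numbered samples correlated at 0.0333 to 0.190 between groups, so the numbers were not taken to pair samples. Sequences and genome positions were not used here.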

Additional observations from a re-analysis of the deposited data

Results flagged for a closer look

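Genes named above whose 4 h level differed from the 2 h level in limma (adjusted p under 0.05 over all genes, 4 h minus 2 h in log2, 1 RNA sample against 2) are given here with that difference. Genes named for their change at 4 h against time zero share that 4 h sample with this contrast. The positive differences were 0.88 for YKL068W-A, 1.13 for STR3, 0.89 for OPT1, 0.87 for MUP3 and 0.67 for SNU13. Among genes of ethanol use, peroxisomes and mitochondria the values were -2.05 for ADH2, -1.35 for ICL1, -1.13 for SFC1, -0.87 for MLS1, -0.71 for FOX2, -0.68 for ACO1, -0.64 for DLD1 and -0.71 for ODC1. RKI1 differed by -1.26. Ribosomal protein genes gave -1.19 for RPS9B, -1.11 for RPL22A, -0.86 for RPL24A, -0.66 for RPS0A, -0.80 for RPS13 and -0.76 for RPS0B. The assembly factors RRP3 and RRP1 differed by -1.24 and -0.99, and the initiation factor subunit PRT1 by -0.61. The remaining values were -2.74 for MF(ALPHA)1, which is dim, -1.93 for INO1, -1.18 for SNZ3, -1.09 for SIT1, -0.82 for FTR1, -0.75 for ERG4, -1.29 for SCW10 and -0.72 for GAS1.

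Against time zero 4 genes, RRP1 and SCW10 from the list above among them, passed in opposite directions at 1 h and 4 h. That choice fixes the sign of their difference between the times, which is given as a description. RRP1 rose by 0.84 at 1 h and fell by 1.08 at 4 h, so that 4 h minus 1 h was -1.92. SCW10 rose by 0.50 and then fell by 1.11, a difference of -1.61. FEX1, a plasma membrane fluoride exporter, rose by 0.46 and fell by 0.52, a difference of -0.97, and NUC1, the main mitochondrial nuclease, rose by 0.63 and fell by 0.69, a difference of -1.32. FEX1 and NUC1 were chosen after their values were seen.

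The ribosomal RNA control probe sets, which no comparison used, had a median at 4 h that was 2.27 above that of the controls. Both 4 h arrays were above both controls, and the 1 h and 2 h replicates differed by more than 1 log2 unit among themselves. The part of this difference in the gene results was not tested.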

How the results depend on the processing

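Of the 106 named genes that passed, 0 turned direction under any of the 15 alternatives in which they were tested (83 of them under the filter on dim genes). Several alternatives could not turn a direction, because they leave each gene's 4 h change as it was. These are the filter, the prior trend, the replicate block, the fit of controls and 4 h alone, and leaving out a 1 h or 2 h sample. The genes were also picked because their changes passed, so few turns were likely beforehand. Quantile normalization gave 25 higher and 125 lower genes (4 higher by at least 2-fold), median centring 31 and 137, only genes above the 25th percentile 64 and 225, an intensity trend in the prior 71 and 260, and the mean over probe sets 40 and 203. The fit of controls and 4 h alone gave 0 higher and 1 lower (0 and 1 at 2-fold), with 1 fallen gene of ethanol use and 0 called in every other list counted below. The replicate block gave 37 and 162 (11 higher by 2-fold), and 4 each for amino acid biosynthesis and the cell wall. Of all calls 16.5% were rises, and 0% to 23.2% under the alternatives. Quantile normalization left 4 falls in beta-oxidation, 3 in glycerol metabolism and 4 each in stationary phase, amino acid biosynthesis and cell wall, and median centring gave the same 3, 4, 4 and 4 in the last 4 lists and 9 small-subunit ribosomal protein genes. The intensity trend gave 35 large-subunit genes. Leaving out 1 array gave 2 to 82 genes higher, 16 to 271 lower, 2 to 9 higher and 16 to 41 lower by 2-fold. It gave 4 to 11 for ethanol use, 0 to 7 for beta-oxidation, 2 to 31 and 5 to 19 for large-subunit and small-subunit ribosomal proteins, 0 to 5 for glycerol, 0 to 7 for stationary phase, 0 to 10 rises for sulfur, 0 to 11 for amino acid biosynthesis and 1 to 9 for the cell wall. Of the same 106 genes, 17 kept the call without a 2 h sample, 28 without control replicate 1, 42 without control replicate 2, 105 without a 1 h sample, and 98 or 102 with 1 technical array. The cause of these shifts was not tested. Dim genes and the single 4 h RNA sample limit the precision.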
